A study of Homo sapiens with 60 samples.

Results

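Transcript levels of 9 genes of the insulin-like growth factor (IGF) and insulin system are described here across herbal extract treatments of HepG2 cells. The 9 are the binding proteins IGFBP1, IGFBP2, IGFBP3, IGFBP4 and IGFBP6, the receptors IGF1R and INSR, and the receptor substrates IRS1 and IRS2. They were found by symbol among the 60675 Ensembl identifiers of the count table, and all 9 had a row. HepG2 is an established line from a human liver carcinoma, and it still makes many hepatocyte proteins. Cells were sampled after 24 h by RNA sequencing in 60 libraries, of which 3 are of the vehicle dimethyl sulfoxide (DMSO). Water extracts were made of the decoctions Yijin-tang and Soshiho-tang, and ethanol extracts of Liriopis seu Ophiopogonis Tuber (here Liriope), Schisandrae Fructus (Schisandra), Longan Arillus (Longan), Zizyphi Semen (Zizyphus), Polygalae Radix (Polygala) and Aucklandiae Radix (Aucklandia). Each extract was given at a low dose of 20, a medium dose of 100 and a high dose of 500 µg/mL. Polygala doses were lower, at 10, 50 and 250 µg/mL, and Aucklandia was used at 11.2, 56 and 280 µg/mL. Each dose had 3 libraries for Yijin-tang, Liriope, Schisandra, Longan and Zizyphus, 2 for Soshiho-tang, and 1 for Polygala and for Aucklandia. The labels do not say whether replicates came from separate cultures, so a p-value may measure only technical spread. The sample codes place Yijin-tang with Soshiho-tang, Liriope with Schisandra, Longan with Zizyphus and Polygala with Aucklandia, and the vehicle in a code set of its own. A difference from vehicle therefore cannot be told apart from a difference between code sets, whereas high and low doses of 1 extract share a set.

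IGFs circulate bound to binding proteins, which hold them away from the IGF1 receptor or carry them to it. The liver is the main source of IGFBP1, whose transcription insulin represses and fasting, hypoxia and several stress pathways raise. INSR and IGF1R are related receptor tyrosine kinases that phosphorylate IRS1 and IRS2, which in turn recruit phosphoinositide 3-kinase and activate AKT. AKT holds FOXO transcription factors out of the nucleus, and FOXO factors bind the promoters of IGFBP1 and IRS2 among others.

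The binding proteins are a family, and the stretch of coding sequence below is shown because it marks them as relatives at the level of DNA. Each line gives 24 bases, 5′ to 3′ on the coding strand, that encode the cysteine-rich motif of the family near the amino end, and capitals mark the 17 bases that are identical in the 4 sequences.
IGFBP1: GGCTGCGGCTGtTGCccgatgTGC
IGFBP2: GGCTGCGGCTGcTGCtcggtgTGC
IGFBP3: GGCTGCGGCTGcTGCctgacgTGC
IGFBP4: GGCTGCGGCTGtTGCgccactTGC
They lie in coding exon 1 of each gene on GRCh38, at chr7:45888818-45888841 (plus strand) in IGFBP1, chr2:216633770-216633793 (plus) in IGFBP2, chr7:45920922-45920945 (minus) in IGFBP3 and chr17:40443889-40443912 (plus) in IGFBP4, by the transcripts of GENCODE 29. The motif was not found in the coding sequence of IGFBP6. IGFBP1 (chr7:45888357-45893668) and IGFBP3 (chr7:45912245-45921874) are neighbours on opposite strands, 18.6 kb apart.

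Promoters of 8 of the 9 genes, all but IGFBP1, were matched in RefSeq (GRCh38.p14, 250 bases before to 50 after the start). The FOXO-type core of the insulin response element, CAAAACA, and the general FOXO core, GTAAACA, were searched on both strands. They occur in 4.92% and 3.42% of the 35116 promoters of this length. CAAAACA had 1 match, on the minus strand of IRS2 from 40 to 34 bases before the start, and GTAAACA had 1, on the plus strand of IGFBP6 from 186 to 180 bases before it. The 30 bases around each are shown because they are the only matches of these cores among the 8 genes, with the core in capitals as read on the gene's strand.
IRS2: gagtcacatgtTGTTTTGctcttcttagtt
IGFBP6: caatttgggaaGTAAACAgaaactggaaag
The first lies at chr13:109786605-109786634 (minus strand) and the second at chr12:53097470-53097499 (plus strand). Of the other motifs searched, also on both strands, the TATA box TATAAA (11.5% of promoters) was matched in IGFBP4, 29 to 24 bases before the start. IGFBP2 had 3 promoters in RefSeq and the other genes 1 each. The shares are per promoter, so IGFBP2 had more room for a match. The hypoxia response element core ACGTG (21.4%) was matched in the promoters of IGF1R and IRS1. In IGFBP2 it was matched only in promoter 3, which lies inside the gene, 31 to 35 bases after that start. The aryl hydrocarbon receptor core GCGTG (36.5%) was matched in IGFBP2 (promoter 2 only), IGFBP3, IGF1R and IRS1, and the GC box GGGCGG (45.0%) in all 8 genes.

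Library totals ran from 20.7 M to 38.0 M expected counts (M, mega). Levels are in CPM, the counts of a gene per M counts of the library, on library sizes scaled by the trimmed mean of M values (TMM), and changes are log2 ratios with standard errors (SE) from edgeR's quasi-likelihood test over 16924 genes in the 54 replicated libraries. A gene is called when its adjusted p is under 0.05. Hepatocyte transcripts were abundant, with a median of 7900 CPM for ALB (albumin), and the defining leukocyte, fibroblast and muscle markers PTPRC, CD3E, COL1A2 and DES were at 0.0899 CPM or less in every library, while CD68 and ACTA2, markers of macrophages and smooth muscle, had medians of 38.2 and 55 CPM. PDGFRB and PECAM1, of mural and endothelial cells, had medians of 12.5 and 4.05 CPM, and COL1A1 of 0.801 CPM. In bulk RNA, fewer cells of a type and less RNA per cell cannot be told apart. Libraries differed from their group mates most in Schisandra low replicate 1, Liriope high replicate 2 and vehicle replicate 1, so results that rest on these are also given without them. Without TMM the share of higher genes among those called fell from 48.6% to 35.9% for high against low Yijin-tang, from 55.3% to 44.1% for Soshiho-tang and from 53.5% to 29.1% for Schisandra.

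In vehicle, the order of levels per kilobase of exon was IGFBP4, IGFBP1, IGF1R, IRS1, INSR, IGFBP6, IGFBP2, IGFBP3 and IRS2. IGFBP4, which inhibits IGF action until proteases cut it, stood at 32.8 ± 0.79 CPM per kilobase (SD, n = 3). IGFBP1 stood at 15.8 ± 1.93 and IGF1R at 10.9 ± 0.541 CPM per kilobase. IRS1 at 8.11 ± 0.407 and INSR at 7.96 ± 0.1 CPM per kilobase overlapped, as did IGFBP3 and IRS2 at the bottom, while all other neighbours in this order had separate libraries. IGFBP3, the main carrier of circulating IGF, was at 0.0586 ± 0.0449 CPM per kilobase, and IRS2, the second major hepatic substrate, at 0.0259 ± 0.0162. Those last 2 genes had 1 to 22 and 0 to 12 counts per replicated library, so their changes were poorly measured. Of the ligands, IGF2 stood at 548 CPM per kilobase in vehicle, and IGF1 and INS (insulin) had 0 counts in the vehicle libraries. IGF1R overlaps SYNM-AS1 on the opposite strand, and IRS2 also overlaps a gene there. The kit keeps strand but the counting is not stated to use it, so reads of these pairs may not be told apart.

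IGFBP1 rose with the high dose of 3 extracts, and it was among the genes that rose most in each. Its mean level went from 53.3 to 104 CPM in Yijin-tang (1.96-fold), from 53.6 to 171 CPM in Soshiho-tang (3.18-fold) and from 41.7 to 155 CPM in Schisandra (3.72-fold). Ranked by rise among genes of at least 5 CPM, it was number 4 of 10821, number 10 of 10837 and number 2 of 10821. It was not called between high and low Liriope, Longan or Zizyphus, where its ranks were 3626 of 10789, 10240 of 10816 and 53 of 10783. A rank by rise takes no account of spread between replicates, which was large for IGFBP1.

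In Yijin-tang the low-dose libraries held IGFBP1 at 49.2, 57.2 and 53.4 CPM, the medium-dose libraries at 31.3, 37.6 and 63.9 CPM, and the high-dose libraries at 95.5, 113 and 105 CPM. Every high-dose library was above every library of the other doses. Between high and low dose, 14.1% of all genes had separate libraries and were higher. The high against low change was 0.97 ± 0.26 (SE, log2, adjusted p = 0.0122). The call was lost without Yijin-tang high replicate 2 (0.91, adjusted p = 0.0566) and without Yijin-tang low replicate 1 (0.92, adjusted p = 0.0563).

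In Soshiho-tang the 2 low-dose libraries were at 57 and 50.2 CPM, the medium-dose libraries at 48.3 and 44 CPM, and the high-dose libraries at 177 and 164 CPM. Low and medium doses were close to each other and the high dose was apart from both. With 2 libraries per dose, 25.3% of all genes were separate and higher between high and low dose. The change was 1.67 ± 0.31 (SE, log2, adjusted p = 0.000318), and it stayed called when any 1 of these 4 high- and low-dose libraries was left out, with a range of 1.58 to 1.77.

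In Schisandra the low-dose libraries were at 38.2, 30.4 and 56.5 CPM, the medium-dose libraries at 37.6, 43.8 and 65.2 CPM, and the high-dose libraries at 126, 148 and 190 CPM. The lowest high-dose library stood above the highest of the others. Libraries were separate and higher between high and low dose for 9.72% of all genes. The change was 1.89 ± 0.26 (SE, log2, adjusted p = 1.38e-06), with a range of 1.72 to 2.16 when each high- or low-dose library was left out in turn.

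**Figure D1:**
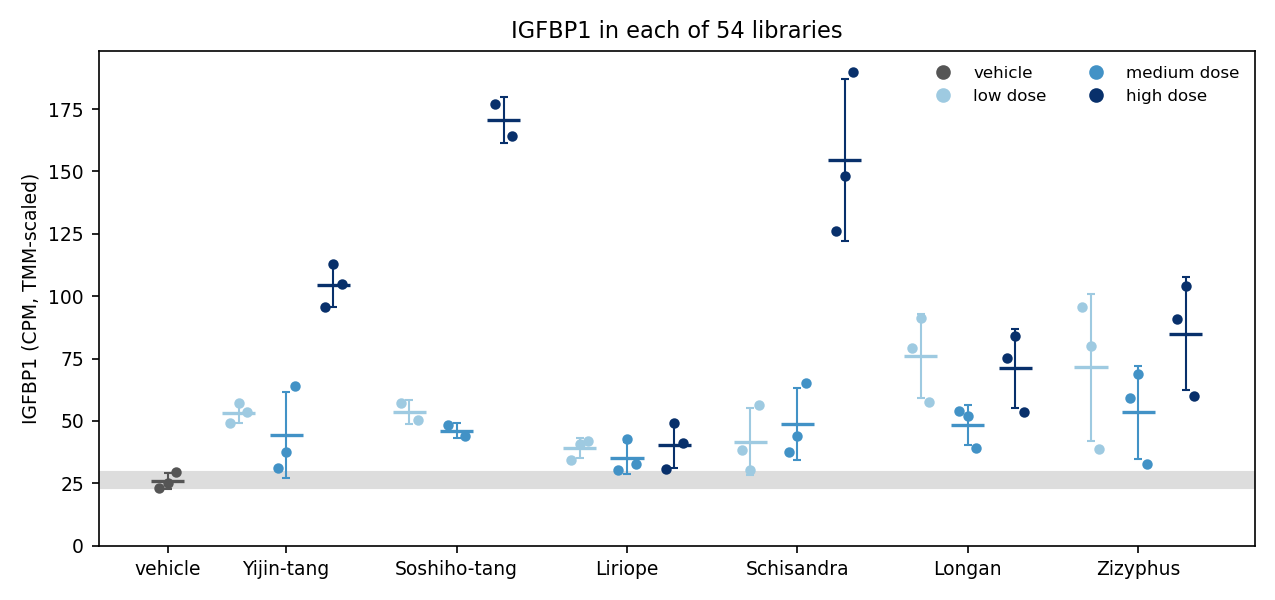
IGFBP1 level (CPM, TMM-scaled, linear axis) in each of 54 libraries, with the mean and SD of each group of 2 or 3 and the range of the 3 vehicle libraries in grey. High doses of Yijin-tang, Soshiho-tang and Schisandra lie between 95.5 and 190 CPM, above all their own lower-dose libraries, and every treated library lies above the vehicle range.

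In all 3 of these extracts the medium dose did not differ from the low dose beyond the test. The medium against low change of IGFBP1 was -0.27 ± 0.27 in Yijin-tang (95% interval -0.82 to 0.27), -0.22 ± 0.33 in Soshiho-tang (-0.88 to 0.44) and 0.23 ± 0.27 in Schisandra (-0.31 to 0.78). A rise was called at 500 µg/mL and none was detected at 100 µg/mL. None of the 9 genes was called between medium and low dose in any of the 6 replicated extracts. Of all genes, 0.118% were called in that comparison for Soshiho-tang (0.112% higher and 0.00591% lower), 0.0709% for Schisandra (0.0355% each way), 0.00591% for Yijin-tang (higher) and 0.00591% for Zizyphus (lower), and 0% for Liriope and Longan.

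For the remaining extracts the IGFBP1 estimates of high against low dose were near 0, with intervals that leave room for moderate change. Liriope held 34.4, 40.9 and 41.8 CPM at the low dose and 30.6, 49.2 and 41 CPM at the high dose, a change of 0.05 (95% interval -0.5 to 0.6). Longan held 79.4, 91.1 and 57.7 CPM at the low dose and 75.3, 84.2 and 53.6 CPM at the high dose, a change of -0.1 (-0.61 to 0.42). Zizyphus held 95.6, 79.9 and 38.8 CPM at the low dose and 90.9, 104 and 60.1 CPM at the high dose, a change of 0.25 (-0.26 to 0.77). High and low libraries overlapped in each of these 3. Replicate 3 was the lowest library at both doses of Longan and of Zizyphus. The intervals come from a fit without pairing and include that shared spread. Medium against low dose was -0.14 ± 0.28 in Liriope (-0.7 to 0.42) and -0.42 ± 0.26 in Zizyphus (-0.94 to 0.11). In Longan it was -0.65 ± 0.26 (-1.18 to -0.13, adjusted p = 1), with 54.1, 52 and 39.1 CPM at the medium dose, all below the low-dose libraries, as was so for 4.5% of all genes.

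Extracts that share a code set were compared directly at 500 µg/mL. Liriope was lower than Schisandra in IGFBP1 (40.3 ± 9.33 against 155 ± 32.5 CPM, SD, n = 3 each, change -1.93 ± 0.26, adjusted p = 8.27e-07), in a comparison that called 7.21% of all genes. Their high against low changes also differed, by -1.84 ± 0.38 for Liriope minus Schisandra (adjusted p = 0.00178), where 4.11% of genes were called. Yijin-tang minus Soshiho-tang was -0.71 ± 0.28 at the high dose (95% interval -1.27 to -0.15, adjusted p = 0.184). Longan minus Zizyphus was -0.25 ± 0.26 (-0.77 to 0.27, adjusted p = 0.997). The high against low changes of Yijin-tang, Soshiho-tang and Schisandra did not differ beyond the test from one another, with Schisandra minus Yijin-tang at 0.92 (0.19 to 1.66, adjusted p = 0.231), Schisandra minus Soshiho-tang at 0.22 (-0.6 to 1.04, adjusted p = 0.921) and Yijin-tang minus Soshiho-tang at -0.7 (-1.52 to 0.12, adjusted p = 0.678). Longan minus Zizyphus in the dose changes was -0.35 (-1.08 to 0.38, adjusted p = 1). Of these 5 differences of dose changes, Liriope minus Schisandra for IGFBP1 held the only call among the 9 genes. At the high dose itself, Liriope was also lower than Schisandra in IGF1R (-0.28, adjusted p = 0.0155) and in IGFBP4 (-0.13 ± 0.041, adjusted p = 0.0416), the latter lost without Liriope high replicate 1 or 3 or Schisandra high replicate 1 or 3 (adjusted p between 0.0591 and 0.208).

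IGFBP1 also varied more between replicates than nearly all genes of like level. Its SD within groups was 0.361 on the log2 scale, against a median of 0.0745 over the 6374 genes within 3-fold of its mean level, and 99.8% of those had a smaller SD. Replicate 3 held the lowest value in 6 of 6 groups of Longan and Zizyphus, replicate 1 in 3 of 3 groups of Yijin-tang, and replicate 1 in 5 of 6 groups of Liriope and Schisandra. IGFBP4, by comparison, had a within-group SD of 0.0464, and only 5.8% of 6063 genes of like level had a smaller one.

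Against vehicle, IGFBP1 was higher at every dose of every replicated extract. The vehicle libraries held 23.3, 25.3 and 29.6 CPM, and the lowest of the 51 treated libraries, Schisandra low replicate 2, held 30.4 CPM. The treated median was 54.1 CPM. Every treated library lying above every vehicle library was found for 2.21% of all genes tested, and among the 9 genes for IGFBP1 alone. The test called IGFBP1 in 12 of 18 dose groups, all higher, in 8 without vehicle replicate 1 and in 9 without vehicle replicate 2. At the low dose the change was 1.55 in Longan, 1.45 in Zizyphus, 1.04 in Yijin-tang and 1.04 in Soshiho-tang, all 4 called, and 0.68 in Schisandra and 0.59 in Liriope, not called. Genes called higher than vehicle at these low doses made up 9.74%, 7.79%, 7.11% and 5.48% of all genes in the 4 extracts with the call. At the high dose the change was 2.71 in Soshiho-tang, 2.57 in Schisandra, 2.01 in Yijin-tang, 1.71 in Zizyphus and 1.46 in Longan, all called, and 0.64 in Liriope, not called. Genes called higher at the high dose made up 10.6%, 10.8%, 11.1%, 8.15%, 9.64% and 8.56% of all genes in that order of extracts. At the medium dose Zizyphus (1.04), Schisandra (0.91) and Longan (0.9) were called, with 8.16%, 9.61% and 9.25% of all genes called higher.

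The order of mean levels is given by dose. At 20 µg/mL Longan (76.1 ± 16.9 CPM) and Zizyphus (71.5 ± 29.3) had the highest means and Liriope (39 ± 4.07) the lowest, with overlapping libraries between neighbours. This order followed the code sets, Longan and Zizyphus above Soshiho-tang (53.6) and Yijin-tang (53.3) above Schisandra (41.7) and Liriope, so extract and code set cannot be told apart in it. At 500 µg/mL Soshiho-tang (171 ± 9.41 CPM, n = 2) and Schisandra (155 ± 32.5) overlapped at the top, followed by Yijin-tang (104 ± 8.55), Zizyphus (85.1 ± 22.7) and Longan (71.1 ± 15.7), with Liriope (40.3 ± 9.33) below. Zizyphus overlapped both Yijin-tang and Longan.

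The other binding proteins moved less or were too scarce to measure well. High against low dose called 2 of the 9 genes higher in Yijin-tang (IGFBP1 and IGFBP4), 2 in Soshiho-tang (IGFBP1 and IGFBP2) and 2 in Schisandra (IGFBP1 and IGFBP4), and none lower. Of all genes tested, 3.78%, 2.81% and 3.92% were called higher in these comparisons. None of the 9 was called in Liriope, Longan or Zizyphus, where 0.0295% (0.0177% higher and 0.0118% lower), 0.0177% (all higher) and 0.0355% (0.0177% each way) of all genes were called. The median change of the 9 genes was 0.23 in Yijin-tang, 0.19 in Soshiho-tang and 0.16 in Schisandra, beside medians over all genes of 0, 0 and -0.01.

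**Figure D2:**
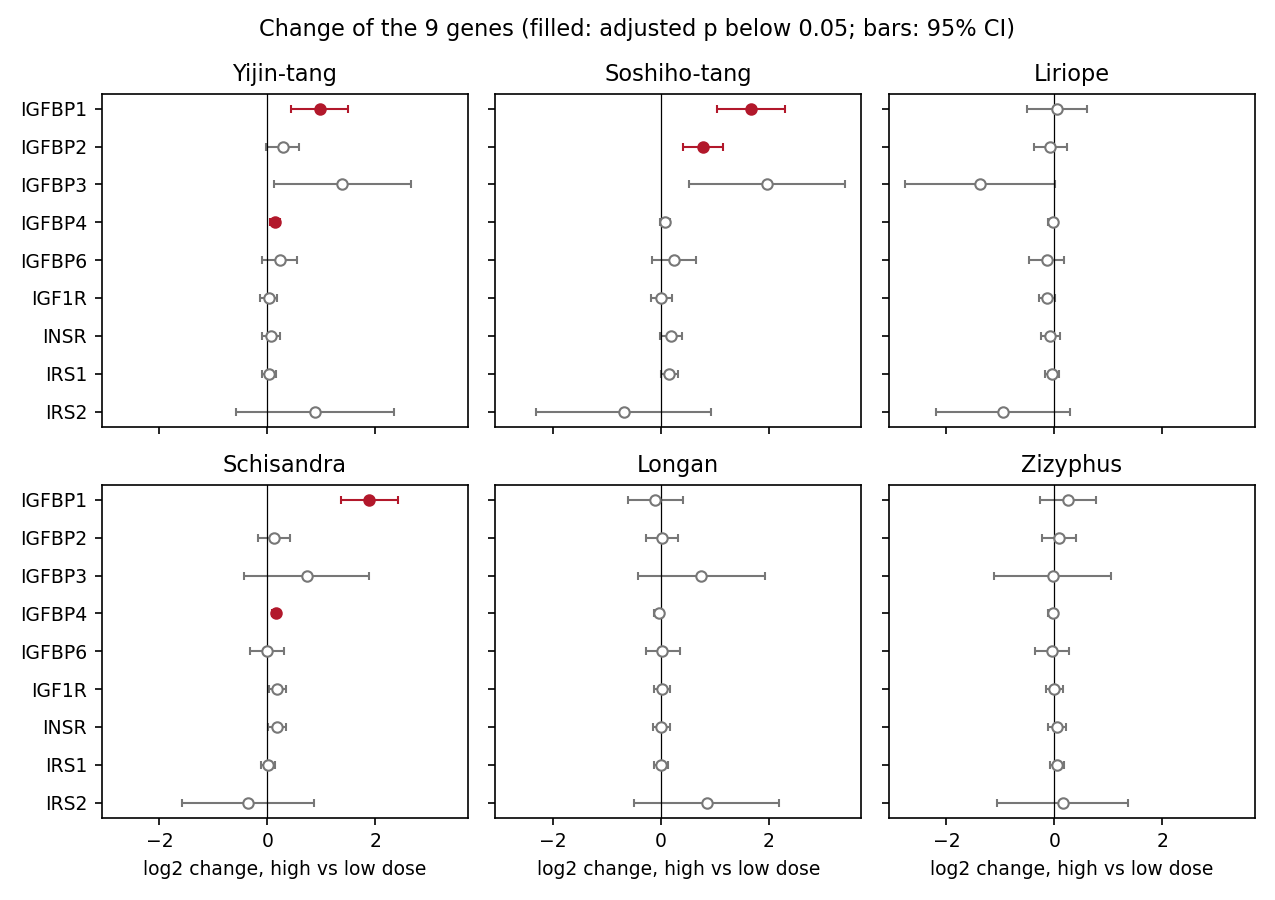
Log2 change between high and low dose for the 9 genes in the 6 replicated extracts, with 95% confidence intervals; filled red points have an adjusted p below 0.05. IGFBP1 stands apart in Yijin-tang (0.97), Soshiho-tang (1.67) and Schisandra (1.89), while the intervals of IGFBP3 and IRS2 are wide.

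IGFBP2, another binding protein made by the liver, was at 2.04 and 1.74 CPM in low Soshiho-tang and at 3.06 and 3.46 CPM in the high dose. The groups did not overlap, as was so for 25.3% of all genes in this direction, and the change was 0.78 ± 0.19 (adjusted p = 0.00451). With only 2 libraries per dose the call was lost without Soshiho-tang high replicate 3 (0.69, adjusted p = 0.103) or low replicate 3 (0.67, adjusted p = 0.117). Against vehicle (1.54, 2.26 and 1.91 CPM) IGFBP2 was higher in high Soshiho-tang by 0.78 (adjusted p = 0.000483), with 10.6% of all genes called higher. It was also higher in high Yijin-tang by 0.45 (adjusted p = 0.0272, 11.1% of genes) and in medium Longan by 0.52 (adjusted p = 0.0127, 9.25% of genes), and both of these calls were lost without vehicle replicate 1 (adjusted p = 0.208 and 0.142).

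IGFBP4 changed by small amounts measured with small error. In Yijin-tang it went from 70.8, 71.8 and 70 CPM at the low dose to 78.2, 79.7 and 77.3 CPM at the high dose, a change of 0.15 ± 0.041 (adjusted p = 0.0196). In Schisandra it went from 65.3, 73.1 and 71.2 CPM to 80.5, 75.6 and 77.9 CPM, a change of 0.16 ± 0.041 (adjusted p = 0.00942). High and low libraries did not overlap in either extract, as was so for 14.1% and 9.72% of all genes in this direction. Against vehicle IGFBP4 was higher in high Yijin-tang (0.12, adjusted p = 0.0308) and high Schisandra (0.11, adjusted p = 0.0471), and both calls were lost without vehicle replicate 1 (adjusted p = 0.141 and 0.214). Neither call between doses was firm: without Schisandra low replicate 1, the library at 65.3 CPM, the change was 0.11 (adjusted p = 0.169), and without Schisandra high replicate 1 it was 0.14 (adjusted p = 0.0755). In Yijin-tang the call was lost when high replicate 1 or 2, or low replicate 1 or 3, was left out (adjusted p between 0.0509 and 0.0968), and in both extracts when libraries were scaled by size alone (adjusted p = 0.087 and 0.0888).

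IGFBP3 had 19 and 22 counts in the high Soshiho-tang libraries and 5 and 6 in the low ones, or 0.796 and 0.886 against 0.182 and 0.243 CPM. The libraries did not overlap (25.3% of all genes had separate libraries and were higher here), and the change of 1.97 ± 0.72 was not called (adjusted p = 0.088). With the replicate number as a block it was 2.01 and called (adjusted p = 0.0463). Against vehicle (6, 12 and 2 counts) IGFBP3 was called higher in high Soshiho-tang (1.62 ± 0.6, adjusted p = 0.04), and the call was lost without either high-dose library or vehicle replicate 1 or 3 (adjusted p between 0.121 and 0.173). In Yijin-tang the change was 1.39 ± 0.63 (adjusted p = 0.181), from 0.126, 0.222 and 0.2 CPM to 0.317, 0.526 and 0.63 CPM. IGFBP6, which prefers IGF2 over IGF1, had group means from 3.16 to 4.3 CPM and was called in none of the 6 high against low comparisons and none of the 18 against vehicle.

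Neither receptor nor IRS1 was called between doses. Between high and low dose the change of IGF1R ran from -0.14 in Liriope to 0.19 in Schisandra, that of INSR from -0.07 in Liriope to 0.19 in Soshiho-tang, and that of IRS1 from -0.05 in Liriope to 0.16 in Soshiho-tang. The intervals bound how large a change could be missed, and they are given here for Yijin-tang only. There they were -0.13 to 0.19 for IGF1R, -0.1 to 0.23 for INSR and -0.09 to 0.17 for IRS1. They do not bound the larger estimates of other extracts. IGF1R went from 147 ± 16.5 to 167 ± 6.17 CPM (SD) in Schisandra. In Soshiho-tang INSR went from 86.2 ± 0.536 to 98.1 ± 5.61 CPM and IRS1 from 74.1 ± 1.55 to 83 ± 2.37 CPM. IRS2 was called in no comparison, with group means of 0.119 to 0.331 CPM.

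Among the replicated groups, high Schisandra held the highest means of both receptors, with high Soshiho-tang next to it for INSR (98.1 CPM). INSR was at 94.7, 95.7 and 104 CPM there and at 82, 83.9 and 83.7 CPM in vehicle, a change of 0.24 ± 0.083 (adjusted p = 0.0339), while 10.8% of all genes were called higher. The call was lost when any 1 of 5 of the 6 libraries was left out (adjusted p up to 0.158). IGF1R was at 161, 168 and 173 CPM in high Schisandra and at 144, 116 and 152 CPM in high Liriope, a difference of -0.28 ± 0.078 for Liriope minus Schisandra (adjusted p = 0.0155). Without Liriope high replicate 2, the library at 116 CPM, it was -0.18 (adjusted p = 0.181).

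**Figure D3:**
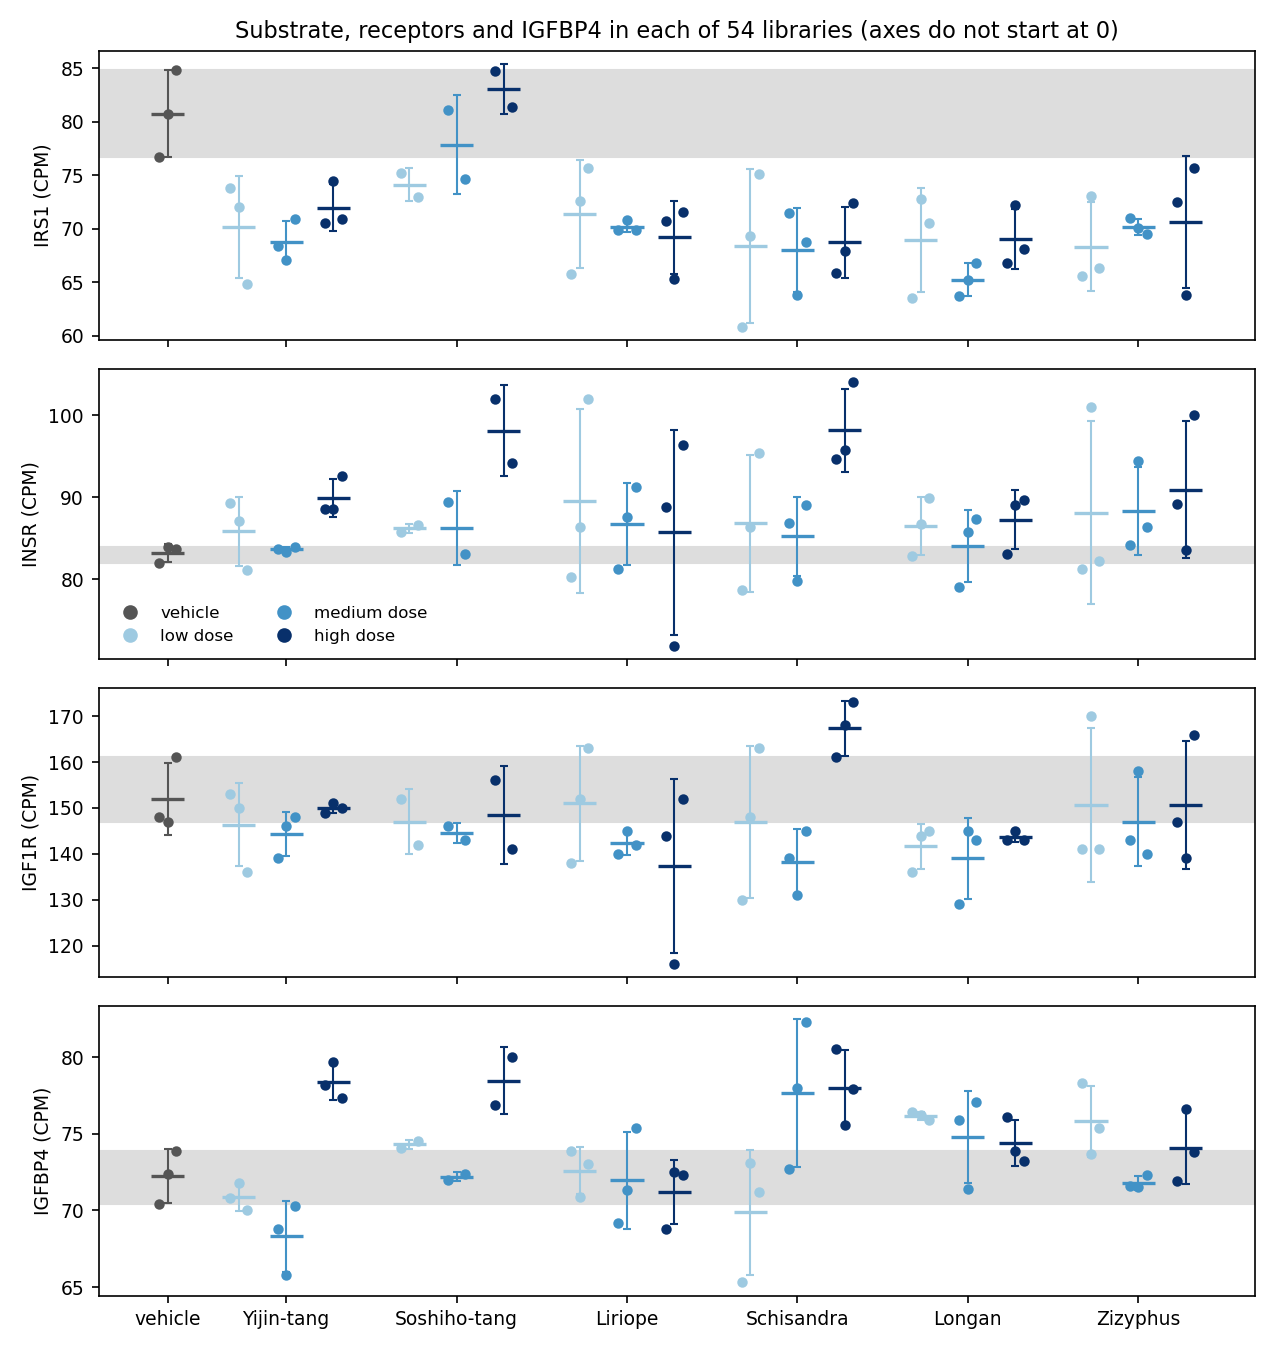
Levels (CPM, linear axes that do not start at 0) of IRS1, INSR, IGF1R and IGFBP4 in each of 54 libraries, with group mean and SD and the range of the 3 vehicle libraries in grey. Of the 51 treated libraries 48 lie below the vehicle range for IRS1, and high Schisandra has the highest means, of these groups, of INSR (98.2 CPM) and IGF1R (167 CPM).

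IRS1, the substrate shared by both receptors, was lower than vehicle in most groups on the TMM scale. Vehicle libraries held 76.7, 80.7 and 84.8 CPM, and 48 of 51 treated libraries lay below all of them, with a treated median of 70.5 CPM. For 3.31% of all genes tested, all 51 treated libraries lay below every vehicle library, and IRS1 was not among these. The share of genes with at least 48 such libraries was not counted. The test called IRS1 lower in 13 of 18 groups, by 0.19 to 0.31 on the log2 scale, and none of the 3 Soshiho-tang groups was among them. In high Soshiho-tang the 2 libraries were at 84.7 and 81.4 CPM, within the vehicle range. Genes called lower than vehicle made up 5.45% to 12.2% of all genes tested across the 18 comparisons. At the high dose IRS1 was called in Liriope (-0.22), Schisandra (-0.23), Longan (-0.22) and Zizyphus (-0.19), where 8.21%, 11.2%, 9.98% and 8.73% of all genes were called lower, of 16.8%, 22.1%, 19.6% and 16.9% called in either direction. This result depended on scaling: by library size alone the median change of all genes against vehicle moved from between 0 and 0.01 to between 0.1 and 0.15, and IRS1 was called lower in 0 of 18 groups. The share of higher genes among those called against vehicle moved at the same time from 45.9% to 51% up to 77.4% to 91.5%. By library size alone the IRS1 change ran from -0.19 to 0.13, below 0 in 16 of 18 groups. Relative to the median of all genes, IRS1 was below 0 in 17 of 18 groups under both scalings, from -0.32 to 0.03. Subtracting the median takes out most of the difference between scalings, so this likeness is no separate check. Without vehicle replicate 3, IRS1 was called lower in 7 groups. IGFBP1 was above vehicle under both scalings, by 0.45 or more on the TMM scale and 0.58 or more by library size alone.

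Polygala and Aucklandia had 1 library per dose, so their values have no replicate check and no test. On a TMM scale over all 60 libraries, vehicle held IGFBP1 at 26.2 ± 3.16 CPM (SD, n = 3). IGFBP1 in Polygala was at 42.4 CPM (95% Poisson interval 39.8 to 45.2) at 10 µg/mL, 27.1 (25.1 to 29.2) at 50 µg/mL and 128 (123 to 132) at 250 µg/mL. In Aucklandia it was at 46.4 CPM (43.9 to 49) at 11.2 µg/mL, 42.2 (39.6 to 44.8) at 56 µg/mL and 97.8 (93.8 to 102) at 280 µg/mL. These intervals cover counting error only. Both series put the high dose above the lower doses, 3.02-fold over low in Polygala and 2.11-fold in Aucklandia. Past 2-fold higher, on the log2(CPM + 1) scale, were 3.88% of genes of at least 10 CPM in Polygala and 9.17% in Aucklandia.

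The 2 extracts parted in IRS1 and INSR, while IGF1R and IRS2 were highest at the high dose of both. IGF1R stood at 130, 158 and 200 CPM from low to high Polygala and at 151, 151 and 261 CPM in Aucklandia. IRS1 went from 64.5 through 78.2 to 116 CPM in Polygala and from 73.3 through 65.4 to 59.8 CPM in Aucklandia. INSR went from 79.7 through 98.9 to 121 CPM in Polygala and stayed at 83.8, 82.5 and 76.2 CPM in Aucklandia. IRS2 had 89 counts in high Aucklandia, or 4.01 CPM (3.22 to 4.93), against 8 and 11 counts at the lower doses. In Polygala IRS2 had 0, 8 and 14 counts from low to high dose, and the 0 allows up to 0.16 CPM by the exact interval.

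IGFBP6 stood at 3.33, 5.49 and 7.38 CPM from low to high Aucklandia and at 3.22, 2.9 and 1.28 CPM in Polygala. IGFBP2 stood at 0.699 CPM in high Polygala and 1.91 CPM in the low dose. Hepatocyte transcripts moved in the same libraries: 9 of the 10 markers were lower at the high than at the low dose of Polygala (ratios of 0.186 to 1.03) and 10 of 10 in Aucklandia (0.302 to 0.958). Their part in the values above was not tested. In the replicated extracts the summed CPM of these 10 markers ran from 45700 to 47900 in high and 45400 to 48000 in low Schisandra, from 41800 to 43000 and 42300 to 47100 in Yijin-tang, and from 38500 to 40200 and 44700 to 46100 in Soshiho-tang.

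**Figure D4:**
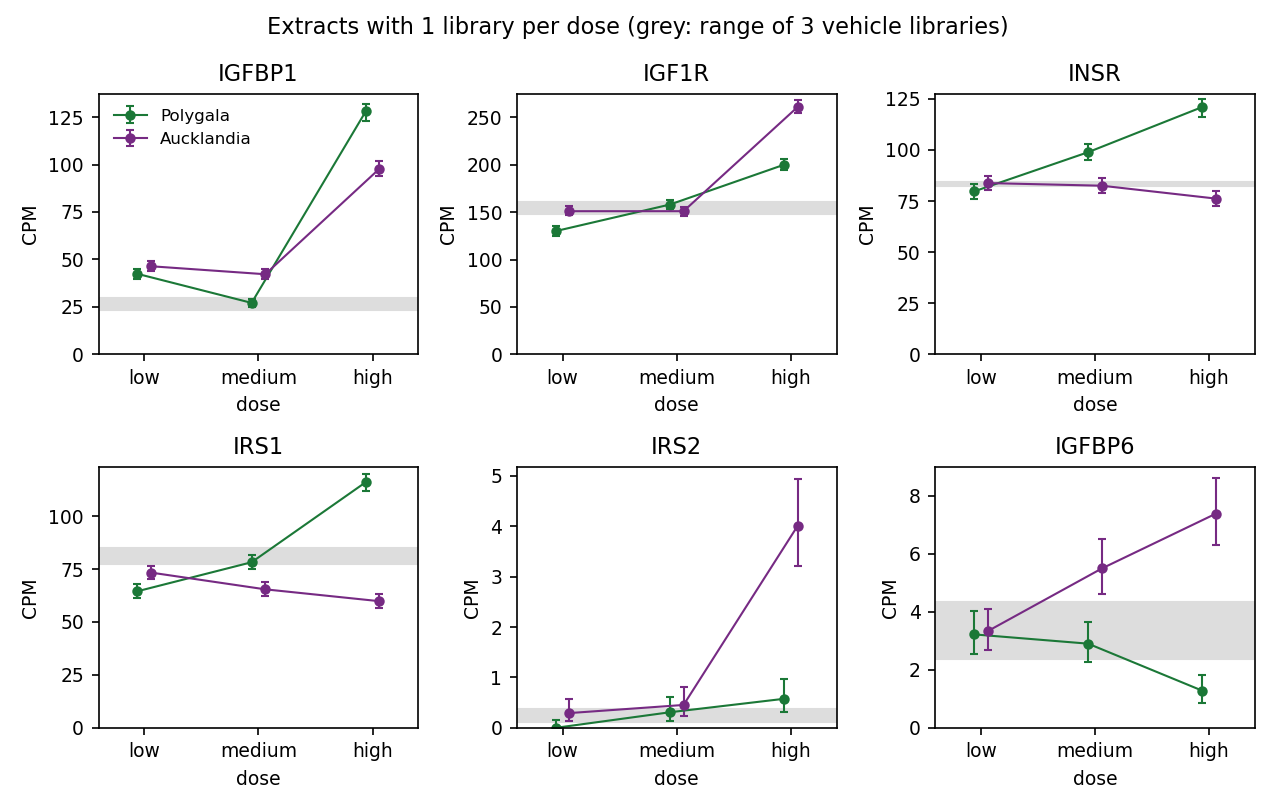
Levels (CPM, linear axes) of 6 of the genes at low, medium and high dose of Polygala and Aucklandia, 1 library per point with 95% Poisson intervals for counting error; grey bands are the range of 3 vehicle libraries. IGFBP1, IGF1R and IRS2 are highest at the high dose of both extracts, with IRS2 at 0.576 CPM in Polygala and 4.01 CPM in Aucklandia. IRS1 and INSR are highest at the high dose of Polygala only, and IGFBP6 (7.38 CPM) at the high dose of Aucklandia only.

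Other genes of the IGF system were mostly level or hardly detected. Of 15 listed ligands, binding proteins and proteases, 7 passed the filter on low counts. Among them STC2, an inhibitor of the protease that cuts IGFBP4, was higher at the high than at the low dose in Soshiho-tang (0.39 ± 0.06, adjusted p = 6.59e-06) and Schisandra (0.22 ± 0.048, adjusted p = 0.00177). IGF2, the ligand these cells transcribe, was called higher in Schisandra (2930 ± 736 to 3750 ± 91.7 CPM, change 0.36, adjusted p = 0.0259), and the change was 0.16 (adjusted p = 0.435) without Schisandra low replicate 1. IGFBP7, a relative of low IGF affinity, was lower in high Soshiho-tang (-0.51 ± 0.15, adjusted p = 0.0372). No gene of this list was called in Yijin-tang.

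Calls in the chain from insulin to AKT and mTOR were of both directions. Of its 42 tested genes 2 were called higher and 2 lower in Yijin-tang, 1 higher and 0 lower in Soshiho-tang, and 2 higher and 1 lower in Schisandra (1 and 1 without Schisandra low replicate 1). ENPP1, a membrane phosphodiesterase that inhibits the insulin receptor, was called higher in all 3. It went from 131 ± 3.62 to 168 ± 2.02 CPM in Yijin-tang (0.36 ± 0.041, adjusted p = 1.54e-08), from 127 ± 2.69 to 147 ± 0.73 in Soshiho-tang (0.22 ± 0.05, adjusted p = 0.00343) and from 135 ± 6.06 to 170 ± 3.57 in Schisandra (0.34 ± 0.041, adjusted p = 5.98e-08). Of all genes, 7.79%, 5.08% and 7.33% were called in either direction in these comparisons.

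Of the FOXO factors and genes they activate, 23 were tested, and calls went in both directions. In Yijin-tang 2 were called higher and 3 lower, in Soshiho-tang 0 and 2, and in Schisandra 1 and 2. Over all genes 3.78% were called higher and 4.01% lower in Yijin-tang, 2.81% and 2.27% in Soshiho-tang, and 3.92% and 3.4% in Schisandra. PPARGC1A, a coactivator of gluconeogenic genes, was higher in Schisandra (0.37 ± 0.088, adjusted p = 0.00508), and FOXO4 was lower in all 3 (-0.33, -0.36 and -0.25). The gluconeogenic G6PC1 changed by 0.33, 0.25 and 0.85 and PCK1 by -0.04, -0.34 and -0.07, none of them called. FOXO1 was lower in Soshiho-tang (-0.22 ± 0.065, adjusted p = 0.0341).

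Calls among insulin-induced lipogenic genes were lower in each of the same 3 extracts. Of 10 tested, 8 were called lower in Yijin-tang, 3 in Soshiho-tang and 7 in Schisandra, and none higher. Over all genes 4.01%, 2.27% and 3.4% were called lower. ACSS2, which makes acetyl-CoA from acetate, fell by 0.87 in Yijin-tang (152 to 83.2 CPM, SE 0.041, adjusted p = 2.74e-20) and by 0.52 in Schisandra (149 to 104 CPM, adjusted p = 8.5e-13). GPAM, the first enzyme of glycerolipid synthesis, fell by 0.42, 0.53 and 0.46 in Yijin-tang, Soshiho-tang and Schisandra. SREBF1, which encodes the factor that drives these genes under insulin, fell by 0.35 in Yijin-tang and 0.43 in Soshiho-tang and was at -0.09 in Schisandra, not called. Without Schisandra low replicate 1 it was at -0.22 there and called (adjusted p = 0.000604), and ELOVL6, a fatty acid elongase, was no longer called (-0.16). The median change of the list was -0.34, -0.14 and -0.21, and the counts were the same when libraries were scaled by size alone and, in Schisandra, without low replicate 1.

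Calls among hypoxia response genes were mostly higher. Of 19 tested, 13 were called higher in Schisandra and 8 in Yijin-tang, with none lower, and 2 higher and 1 lower in Soshiho-tang. Over all genes 3.92%, 3.78% and 2.81% were called higher in these 3 comparisons. Without Schisandra low replicate 1 the Schisandra count was 11. SLC2A1, the glucose transporter GLUT1, was called higher in all 3 (0.32, 0.55 and 0.4), as was ALDOA, a glycolytic aldolase. PDK1, a kinase that inhibits pyruvate dehydrogenase, rose by 0.47 in Yijin-tang and 0.65 in Schisandra, and LDHA (lactate dehydrogenase A) by 0.37 and 0.45.

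**Figure D5:**
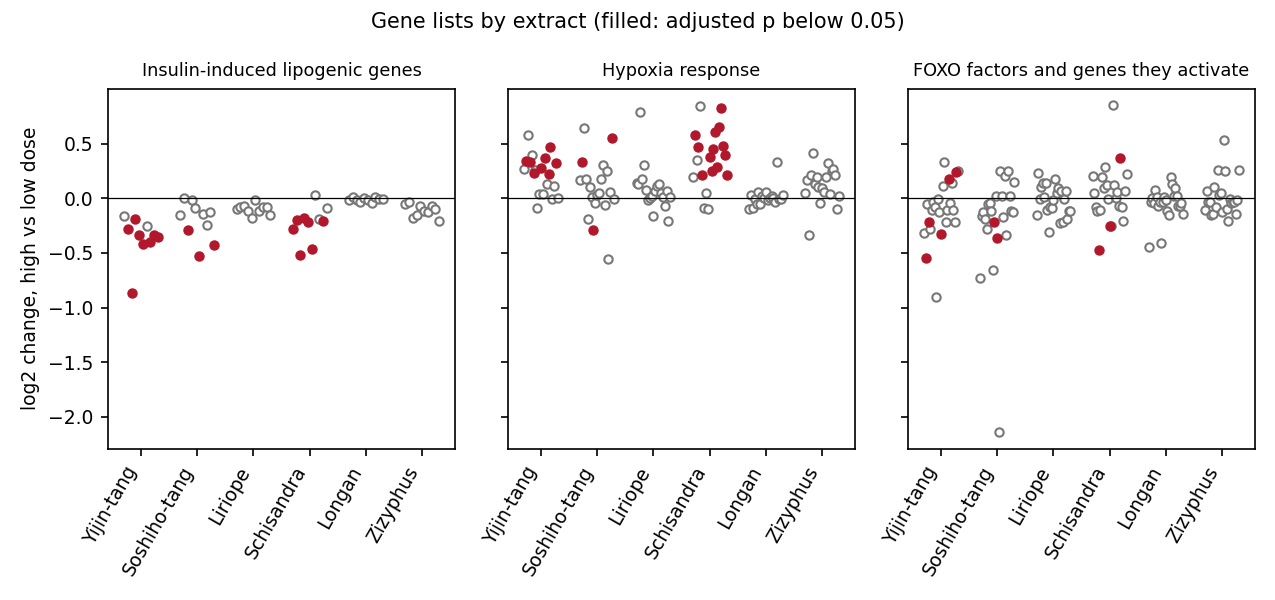
Log2 change between high and low dose for each tested gene of 3 lists in the 6 replicated extracts; filled red points have an adjusted p below 0.05. Lipogenic genes were called lower only (8, 3 and 7 of 10 in Yijin-tang, Soshiho-tang and Schisandra), hypoxia genes mostly higher, and FOXO factors and genes they activate in both directions.

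Over all genes 3.78%, 2.81% and 3.92% were called higher and 4.01%, 2.27% and 3.4% lower between high and low Yijin-tang, Soshiho-tang and Schisandra. Among stress genes, GDF15, a stress-induced cytokine of the p53 list, was higher in Yijin-tang (0.7), Soshiho-tang (1.22) and Schisandra (1.07), while of the 12 genes of that list 1, 3 and 3 were called higher and 2, 0 and 0 lower. Without Schisandra low replicate 1 that list had 1 higher and 1 lower in Schisandra. Of 13 genes of the ATF4 and integrated stress response, 1, 3 and 6 were called higher and 3, 0 and 1 lower, with SLC7A11, the cystine transporter, higher in all 3. Without Schisandra low replicate 1 it was 4 higher and 0 lower in Schisandra. Of 9 genes of the aryl hydrocarbon receptor response, the receptor gene AHR among them, 3, 6 and 2 were called higher and 0 lower. CYP1A1, the leading target of the receptor, rose by 3.27, 4.06 and 2.2, and also in Longan (0.44) and Zizyphus (0.79), where IGFBP1 was not called. Of the 10 hepatocyte markers 0, 0 and 1 were called higher and 3, 0 and 1 lower, and of the 6 tested markers of other cell types 0, 0 and 1 higher and 1, 1 and 1 lower. Their part in the results above was not tested. Apart from CYP1A1 in those 2 extracts and ASNS, an ATF4 target that was lower in Zizyphus (-0.43), no gene of these lists was called between high and low Liriope, Longan or Zizyphus.

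Across the means of all 25 groups on the log2(CPM + 1) scale, the genes most like IGFBP1 were DUSP6, a phosphatase of ERK kinases (Pearson r = 0.83), TMCC1 (0.8) and ACP1 (0.8). Over the 19 groups with replicates their r was 0.87, 0.87 and 0.75, and the most like genes were then GPI, BSDC1 and PAM (0.92 each). Among the 9 genes over 25 groups, INSR and IRS1 had r = 0.83 and IGF1R and IRS2 r = 0.91. High Aucklandia, 1 library, holds by far the most IRS2. Groups of 1 code set and extract are not independent points, and these values are descriptions of likeness.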

How the data were processed

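Per the labels' protocols, RNA from HepG2 was sequenced with a directional kit as 100-base paired reads. Per the submitters' processing notes, the tools were FastQC 0.11.9, Trim Galore 0.6.5, STAR 2.7.3a and RSEM 1.3.3 on hg38 or GRCh38, and the annotation release is not given in the sources used here. The authors deposited expected counts per gene, 10.4% of them fractional, which were rounded. Totals of 20.7 M to 38.0 M per library bound the counting error. Symbols came from a name table (56558 of 60675 identifiers) and positions from GENCODE 29.

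The 54 libraries of 19 replicated groups were fitted together in edgeR 4.0.16 (R 4.3.3) by quasi-likelihood, with TMM scaling and filterByExpr (16924 genes), with Benjamini-Hochberg adjusted p-values in each of 38 comparisons. The 9 members and all lists were chosen with earlier results of these data known. Named genes are the members, CYP1A1, the 3 genes most like a member and, per list and extract, the 2 largest called changes each way of at least 5 CPM. G6PC1 and PCK1, and genes the rule gave for another extract, were named with their values seen. In a simulated Yijin-tang contrast, true 1.5-fold changes were recovered in 98% of 50 genes and 1.2-fold changes in 50%, and in Soshiho-tang in 94% and 22%. The changed genes were of at least 5 CPM and had the spread typical of their level. These shares do not hold for IGFBP1, whose SD within groups was 0.361 against a median of 0.0745 for genes of like level. Nor do they hold for IGFBP2, IGFBP3, IGFBP6 and IRS2, which lay under 5 CPM. The labels and the series text give different DMSO concentrations. Alternatives were DESeq2 1.42.0, other scalings, no filter, single-extract fits, a replicate block and leaving out each library. Settings for lists were chosen after seeing the data.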

Additional observations from a re-analysis of the deposited data

Results flagged for a closer look

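The high against low dose change of IGFBP1 differed between 2 extracts of 1 code set by a test of the difference itself. It was 1.89 in Schisandra (41.7 to 155 CPM) and 0.05 in Liriope (39 to 40.3 CPM), so Liriope minus Schisandra was -1.84 ± 0.38 (SE, log2, edgeR's quasi-likelihood test, adjusted p = 0.00178). High-dose libraries ran from 126 to 190 CPM in Schisandra and from 30.6 to 49.2 CPM in Liriope. Of all genes, 4.11% were called for this difference of dose changes. The difference stayed between -2.11 and -1.67 when each of the 12 high- and low-dose libraries was left out in turn, and it was called each time.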

How the results depend on the processing

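Of 1876 member estimates under another scaling, tool, filter, fit or the block, 247 had passed in the reported fit, of which 217 kept direction and call and 30 lost the call. Another 61 gained one, 49 that passed in neither changed sign, and 104 had no adjusted p in DESeq2. With 1 library left out there were 2214 estimates, and of the 250 that had passed 177 kept the call and 73 lost it. A further 20 gained a call, and 239 that passed in neither changed sign. IGFBP4 turned and was called against vehicle in medium Liriope (0.13) and medium Zizyphus (0.12) by library size alone. IGFBP1 was called in Soshiho-tang and Schisandra under every alternative, and in Yijin-tang under 10 of 12.

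By library size alone, IRS1 was called lower than vehicle in 0 of 18 groups, though its estimate was below 0 in 16. Between high and low dose, 1 member was then called in Schisandra and 1 in Yijin-tang. Without the filter, the fit gave genes no spread of their own (infinite prior degrees of freedom), so IGFBP1 had a quasi-dispersion of 0.791, against 15. Calls then included IGFBP1 for Longan minus Zizyphus (dose changes -0.36, high dose -0.25), Schisandra minus Yijin-tang (0.89), Yijin-tang minus Soshiho-tang (-0.68 and -0.69) and high against low Zizyphus (0.25). Members called were 1 in Schisandra, 1 in Yijin-tang and 1 in Zizyphus, and all genes called were 207 in Liriope, 63 in Longan and 79 in Zizyphus (5, 3 and 6 as reported). DESeq2 called 14, 6 and 12. In single-extract fits, 1 gene was called in Liriope, 2 in Zizyphus and 360 in Schisandra (1240 as reported), with 1 member in Schisandra. The cause of these shifts was not tested beyond the filter.

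Leaving out 1 library gave 836 to 1030 called genes in Yijin-tang (0 to 2 members, IGFBP1 at 0.91 to 1.03), 454 to 496 in Soshiho-tang (1 to 2 members), 615 to 1825 in Schisandra (1 to 3 members), 2 to 6 in Liriope, 0 to 2 in Longan and 3 to 7 in Zizyphus. Without a vehicle library IRS1 was called lower in 7 to 15 groups and IGFBP1 called higher in 8 to 12.

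Same-numbered libraries did not deviate together in every pair of any high against low comparison (r from -0.41 to 0.52), so numbers were not taken as pairing there. They did in medium against low Zizyphus (0.2 to 0.35), where the block changed no member call. IGFBP1 by itself deviated alike by number in Longan. Replicates 1, 2 and 3 were off their group mean by 0.11, 0.27 and -0.38 (log2) at the high dose. At the low dose they were off by 0.09, 0.29 and -0.37. The IGFBP1 intervals come from a fit without pairing and hold this shared spread. Over all comparisons the replicate block lost no member call and gained 4, among them IGFBP3 in Soshiho-tang (2.01), and called 8 genes in Liriope. The block gives each replicate number 1 effect shared by all code sets, so it cannot take up shifts particular to 1 set. For IGFBP1, replicate 3 was lowest in 6 of 6 groups of Longan and Zizyphus but highest in 4 of 6 of Liriope and Schisandra. The block is therefore no check on pairing within a set. Depth limits IGFBP3 and IRS2 most, with medians of 8 and 5.5 counts per library.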
